A study of Xenopus tropicalis with 6 samples.

Results

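The genes described here encode the core proteins of the spliceosome in the frog *Xenopus tropicalis*, together with close relatives that share their names. They were chosen by a pattern of names that uses no measured value, though earlier results of these data were known. It takes symbols of the Sm and LSm, *sf3a*, *sf3b* and *prpf* series, the *cwc* and *bud* series, and single genes such as *u2af1*, *cdc5l* and *ncbp1*. The pattern found 77 of the 23634 genes in the deposited table, and 76 of them reached a mean of 1 TPM in at least one group. It does not take in symbols that begin with *snrnp*, such as *snrnp70* and *snrnp200*, which are counted below with other genes of the pathway.

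Expression was measured in 6 samples of whole neurula embryos of the Nigerian strain at Stage 16. In 3 samples the embryos had been injected with 10 ng of a standard control morpholino, and in the other 3 their siblings had received 10 ng of splice-blocking morpholinos, aimed at the acceptor and donor sites of the microexon that makes *n1-src*, the neural splice form of the tyrosine kinase gene *src*. Every sample carried a morpholino, and no sample of uninjected embryos was used here. Samples of both groups carry the numbers 1 to 3 in the labels, and a number shared by a control and a morphant sample is called a replicate set. Values are in TPM, the relative abundance of a gene's RNA molecules in a sample once length is corrected for, so levels of different genes can be set side by side.

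Introns are removed by the spliceosome, which assembles anew on each intron from small nuclear ribonucleoproteins (snRNPs), each made of a short RNA and its proteins. The U1 snRNP binds the 5′ splice site and the U2 snRNP the branch point, the U4/U6.U5 tri-snRNP then joins, and the Prp19 complex and further factors turn the particle into its catalytic form. A ring of Sm proteins forms the base of the U1, U2, U4 and U5 snRNPs, and a ring of LSm proteins sits on the U6 RNA. A separate minor spliceosome removes a small class of introns.

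Facts of the whole table set the background. The targeted gene, *src*, was at 18.7, 25.8 and 49.2 TPM in control embryos and at 15.6, 17.3 and 34.6 TPM in morphants of the same sets, summed over all its transcripts, so these values do not separate the neural form and are no check of the splice block. Its log2 fold change was -0.44 (standard error, SE, 0.084), with a limma-adjusted p of 0.0398 when the replicate set was a block and 0.822 without the block. Between 12962 and 13126 genes reached 1 TPM in control samples and between 12710 and 12938 in morphant samples. Both genes of a pair, LOC108645507 and LOC100335111, together held 4.89% of all TPM in the first morphant sample and 0.193 to 0.525% in the others, which lowers the share left for every other gene in that sample. Among markers of embryonic tissues, 3 of 4 neuronal genes, 3 of 4 neural crest genes and 5 of 8 muscle and paraxial mesoderm genes were called lower in morphants. Over all genes tested, 5.87% were called lower. Of the markers in these groups that were not called, the muscle genes *myf5*, *myod1* and *actc1* were at 104.6%, 98.6% and 77.4% of their control means. The neuronal gene *elavl3* was at 92.3% and the neural crest gene *foxd3* at 87.8%. The summed level of the neuronal genes ran from 143.3 to 178.3 TPM in control samples and from 111.4 to 119.0 TPM in morphant samples. For the neural crest genes the sums ran from 313.3 to 390.2 TPM and from 242.0 to 295.5 TPM, and for the muscle genes from 3484 to 4512 TPM and from 2437 to 3684 TPM. Most of each muscle sum came from *actc1*, which was not called (limma-adjusted p = 0.0532). It was at 2800, 3720 and 2810 TPM in controls and at 1833, 2982 and 2402 TPM in morphants. The called muscle genes had morphant means from 38.8% (*myh4*) to 48.8% (*ckm*) of the control means. No marker of neural plate, notochord, epidermis, multiciliated cells or endoderm was called by limma (0 higher and 3 lower at an unadjusted p under 0.05). None of the listed markers found in the table was at 0, and their part in the results below was not tested. In whole embryos, fewer cells of a type cannot be told apart from less RNA per cell.

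The spliceosome genes were among the more abundant transcripts of the neurula. Each of the 76 expressed members lay above the median of the 13382 genes tested, the lowest of them at percentile 68.2. Together the 77 members made up 2.57 to 2.74% of all TPM in control samples and 2.68 to 2.75% in morphant samples. Levels differed far more between members than between the groups of embryos.

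**Figure D1:**
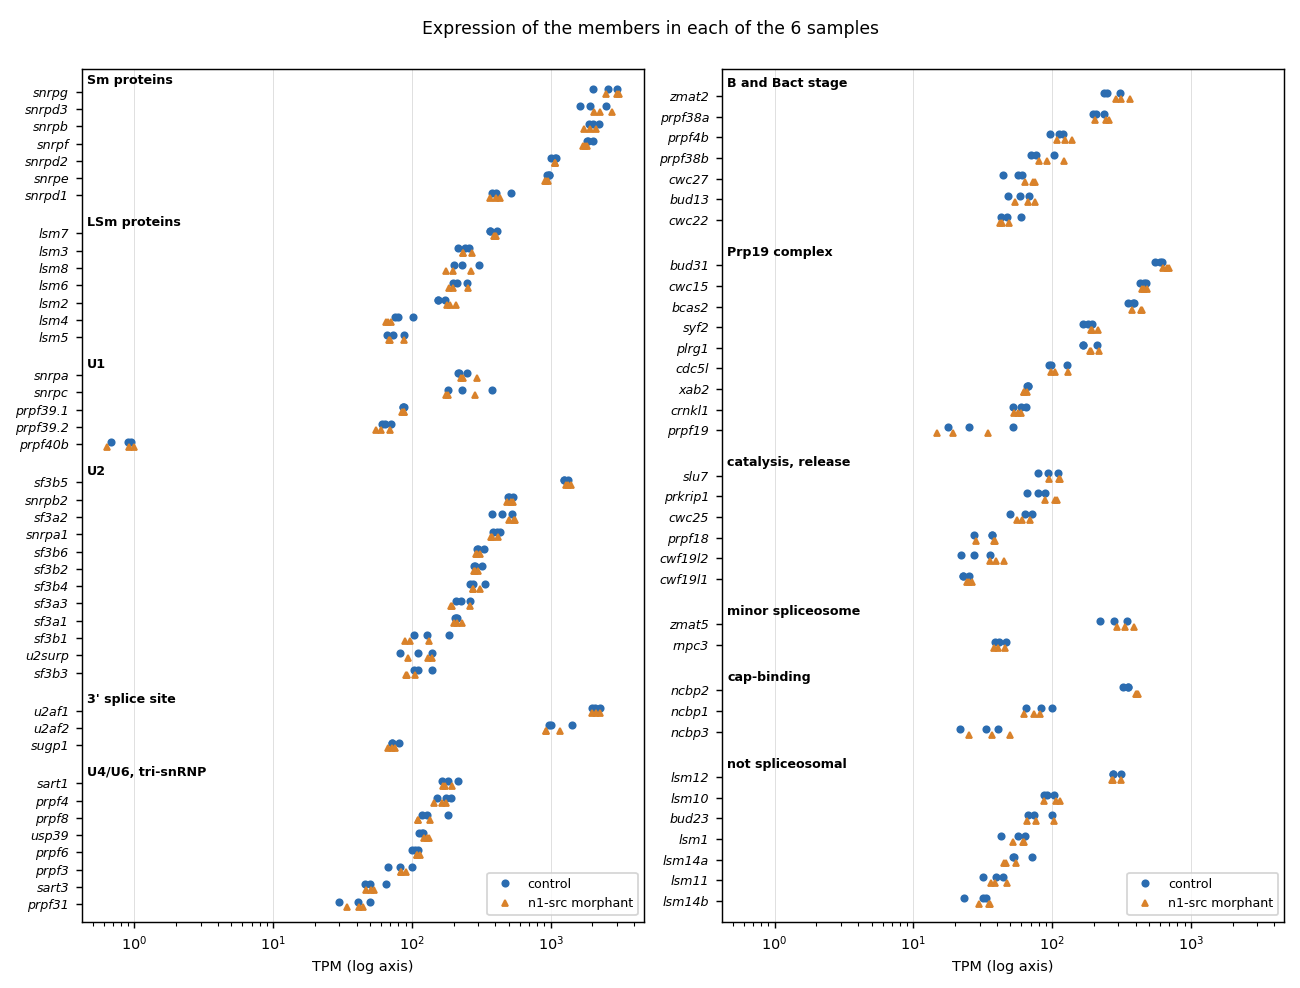
Expression of the members, by particle or stage, in TPM on a log axis. Circles are the 3 control samples and triangles the 3 morphant samples. Most Sm protein genes and *u2af1* lie furthest to the right, and *prpf40b*, near 1 TPM, is the only member under the limit for testing.

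The Sm protein genes gave 41.5% of the members' summed control level. *snrpg* was the highest, with a control mean of 2541 TPM, and *snrpd1* the lowest of the 7, with 431.1 TPM. That range of 5.89-fold covered proteins that sit in one ring. The 7 LSm genes of the U6 ring were lower, from 379.8 TPM for *lsm7* down to 75.6 TPM for *lsm5*, a range of 5.03-fold. Near the 3′ end of the intron, *u2af1*, which encodes the small subunit of the factor that reads the 3′ splice site, was at 2114 TPM, and *u2af2*, for its large subunit, at 1133 TPM. Among the U2 genes the control means ran from 1276 TPM for *sf3b5* to 110.7 TPM for *u2surp*. In the Prp19 complex the lowest gene was *prpf19* itself, which encodes a ubiquitin ligase, at 31.6 ± 18.1 TPM (SD, n = 3), whereas *bud31*, which works beside the same complex, was at 588.7 ± 30.7 TPM (SD, n = 3). *prpf40b* was at 0.901, 0.952 and 0.680 TPM in control samples and 0.989, 0.916 and 0.638 TPM in morphants.

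The main comparison asks how these genes differed between morphants and their sibling controls. Of the 76 tested members, 5 were higher and 2 were lower in morphants. The higher genes were *cwf19l2*, *prkrip1*, *cwc27*, *zmat2* and *ncbp2*, and the lower ones *sf3b1* and *prpf19*. By role, 2 of the higher genes belong to the B and activated B stages of assembly, 2 to the catalytic steps and release, and 1 to the cap-binding complex. Morphant means of the higher genes were 119.7% (*ncbp2*) to 141.0% (*cwf19l2*) of the control means, and those of *sf3b1* and *prpf19* were 76.3% and 72.6%.

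The test was limma on log2(TPM + 0.5) over all 13382 genes, with the replicate set as a block and a Benjamini-Hochberg adjusted p of at most 0.05. Over all genes tested, 2.62% were called higher and 5.87% lower, or 8.49% in either direction, against 6.58%, 2.63% and 9.21% of the members. At an unadjusted p under 0.05, 18 members were higher and 9 lower, or 23.7% and 11.8%, beside 9.76% and 23.4% of all genes. Members higher in all 3 sets numbered 24, and those lower in all 3 sets 18, or 31.6% and 23.7%, where 17.6% and 38.5% of all genes did the same. The log2 fold change was above 0 for 45 members and below 0 for 31 (59.2% and 40.8%, beside 37.7% and 62.3% of all genes), with a median of 0.030 beside -0.068 for all genes. With samples scaled to the same median, the split became 61 above and 15 below, and the median of all genes moved to 0.026. Among the 4251 genes with a mean at least as high as the lowest tested member (24.5 TPM), 3.76% were called higher and 4.92% lower. In these genes 46.3% had a positive change and the median was -0.016. At an unadjusted p under 0.05 from limma, 13.5% of them were higher and 18.6% lower. In all 3 sets, 22.8% were higher and 31.1% lower. The members' shares thus lay nearer to these than to those of all genes.

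The calls lie close to the threshold. No member was called by limma without the block (4 higher and 0 lower at an unadjusted p under 0.05), without set 2 (6 and 3), without set 3 (9 and 4), without the filter on low TPM (18 and 8) or without the mean-variance trend (11 and 6), whereas 9 higher and 4 lower members were called without set 1, among them all 7. Over all genes tested, limma called 350 higher and 786 lower in the main fit. It called 0 and 1 without the block, 85 and 198 without set 2, and 44 and 63 without set 3. The counts were 0 and 0 without the filter, 126 and 368 without the trend, and 472 and 714 without set 1. Each fit that called no member thus also called fewer genes in the whole table.

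**Figure D2:**
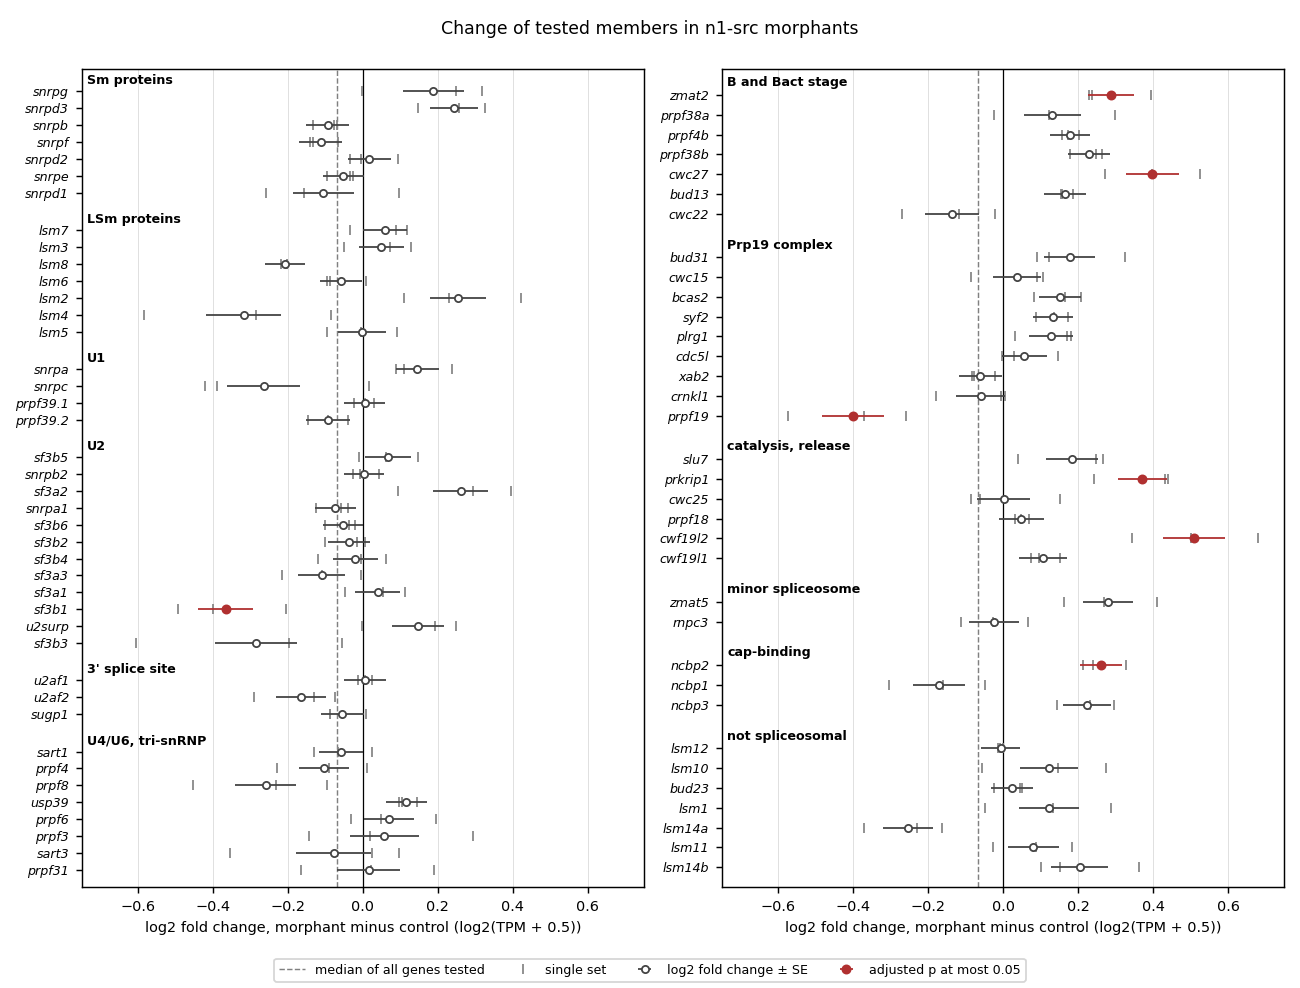
Log2 fold change of tested members, morphant minus control, on the log2(TPM + 0.5) scale. Circles give the estimate with its standard error, filled where the adjusted p was at most 0.05, ticks the 3 sets, and the dashed line the median of all genes tested (-0.068). The filled circles are 5 higher and 2 lower members.

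*cwf19l2* encodes a protein found with the excised intron lariat. It was at 35.5, 27.5 and 22.0 TPM in the control samples of sets 1 to 3 and at 45.2, 39.18 and 35.6 TPM in the morphant samples. The lowest morphant value lay just above the highest control value, so the groups did not overlap. The log2 fold change was 0.51 (SE 0.083, limma-adjusted p = 0.0313, 0.555 without the block). Its relative *cwf19l1* was at 22.6, 22.7 and 25.3 TPM in controls and 24.2, 25.3 and 26.6 TPM in morphants, a difference that did not pass the threshold.

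*prkrip1*, whose human protein was found in the spliceosome at the second catalytic step, was at 88.5, 79.8 and 65.7 TPM in controls and at 104.7, 107.8 and 89.3 TPM in morphants. Each morphant value lay above every control value. The log2 fold change was 0.37 (SE 0.066, limma-adjusted p = 0.0352, 0.572 without the block). Of the other genes for the catalytic steps, *slu7*, which acts in the choice of the 3′ splice site, had a log2 fold change of 0.18 (SE 0.068, limma-adjusted p = 0.128). All 6 members of this group, which also holds *cwc25* and *prpf18*, had estimates above 0, with a median of 0.15 (5 of 6 without set 3). An estimate above 0 was found in 37.7% of all genes tested and in 46.3% of those with a mean of at least 24.5 TPM.

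*cwc27* encodes a protein of the cyclophilin fold that joins the particle at activation. It was at 60.4, 57.0 and 44.3 TPM in controls and at 73.0, 75.2 and 64.0 TPM in morphants, again without overlap. Its log2 fold change was 0.40 (SE 0.070, limma-adjusted p = 0.0350, 0.546 without the block). *zmat2*, the vertebrate counterpart of yeast Snu23, which joins with the tri-snRNP, was at 306.5, 238.1 and 246.8 TPM in controls and at 361.7, 313.0 and 289.2 TPM in morphants. Here the groups overlapped, and the morphant sample was higher within each set. The log2 fold change was 0.29 (SE 0.061, limma-adjusted p = 0.0462, 0.643 without the block and 0.0681 with quantile normalization).

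These genes belong to the proteins of the B and activated B stages, of which 6 of 7 had an estimate above 0 and 5 were higher in all 3 sets. Over all genes tested, 37.7% had an estimate above 0 and 17.6% were higher in all 3 sets. Among genes with a mean of at least 24.5 TPM these shares were 46.3% and 22.8%. Whether this stage differs from other genes was not tested. The median of the 7 genes was 0.20, 0.19 and 0.18 in sets 1, 2 and 3. In *prpf38b* the log2 fold change was 0.23 (SE 0.056, limma-adjusted p = 0.0587) and in *prpf38a*, a subunit needed for activation, 0.13 (SE 0.075, limma-adjusted p = 0.274). *cwc22*, which places the exon junction complex on the particle, had the only estimate below 0, at -0.14 (SE 0.071, limma-adjusted p = 0.238).

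The cap-binding complex holds the cap at the 5′ end of the transcript and helps the first intron to be spliced. *ncbp2*, its small cap-binding subunit, was at 351.4, 352.3 and 322.4 TPM in controls and at 407.2, 416.1 and 405.1 TPM in morphants. The groups did not overlap, and the 3 morphant samples lay close together (SD 5.85 TPM, against 17.0 TPM in controls). The log2 fold change was 0.26 (SE 0.056, limma-adjusted p = 0.0475, 0.521 without the block and 0.0573 with quantile normalization). *ncbp1*, the large subunit of the same complex, was at 64.6, 83.1 and 100.5 TPM in controls and at 62.5, 74.3 and 81.3 TPM in morphants. Its estimate was -0.17 (SE 0.070, limma-adjusted p = 0.152), below 0 in all 3 sets.

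**Figure D3:**
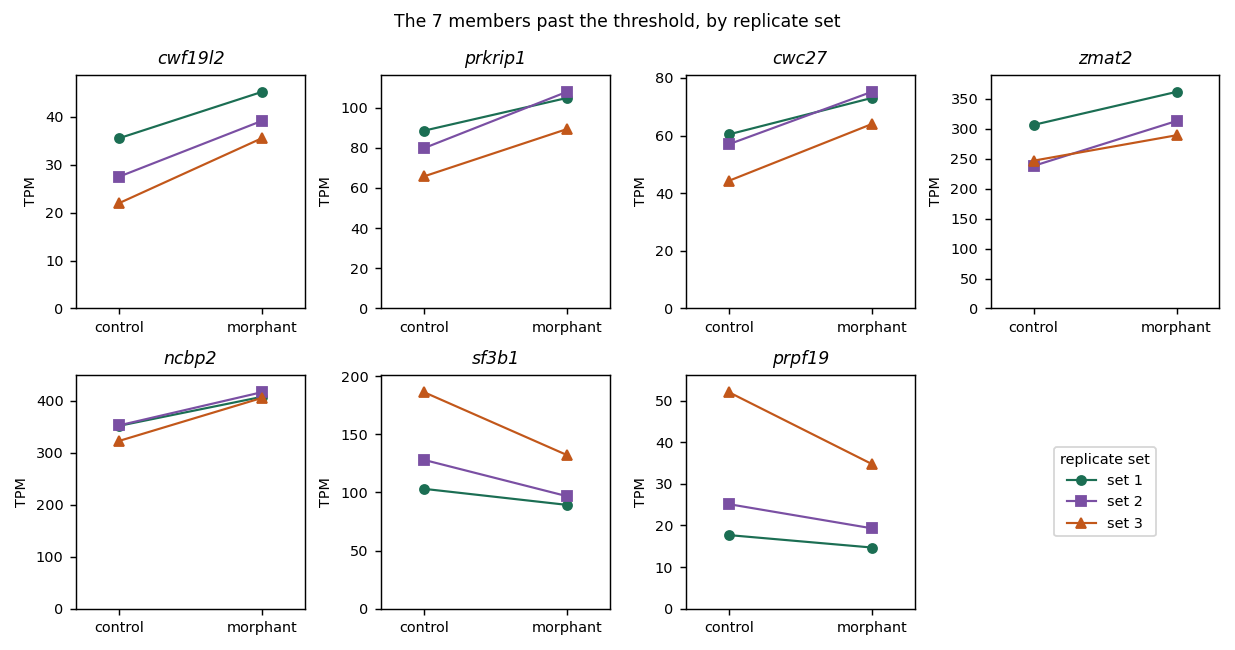
TPM of the 7 members past the threshold, with a line for each replicate set from its control to its morphant sample. Lines of *cwf19l2*, *prkrip1*, *cwc27*, *zmat2* and *ncbp2* go up in all 3 sets and those of *sf3b1* and *prpf19* go down, while the sets differ in level, most in *prpf19* (17.7 to 52.0 TPM in controls).

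*sf3b1* encodes the large U2 protein that clamps the branch point and is often mutated in blood cancers. It was at 103.1, 128.0 and 186.2 TPM in controls and at 89.3, 96.8 and 132.2 TPM in morphants. The groups overlapped because the sets differed, and the morphant sample was lower within every set. The log2 fold change was -0.37 (SE 0.073, limma-adjusted p = 0.0415, 0.740 without the block). *prpf19* was at 17.7, 25.1 and 52.0 TPM in controls and at 14.7, 19.3 and 34.8 TPM in morphants, a log2 fold change of -0.40 (SE 0.083, limma-adjusted p = 0.0444, 0.854 without the block). Both calls were also lost with median scaling, where the log2 fold change was -0.27 for *sf3b1* (limma-adjusted p = 0.0723) and -0.30 for *prpf19* (0.0664). With quantile normalization it was -0.37 (limma-adjusted p = 0.0554) and -0.35 (0.0657), and with the pair of LOC genes left out, an alternative chosen after seeing the data, -0.34 (0.0563) and -0.38 (0.0579).

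The U2 genes did not share one direction. In the U2 snRNP, 5 of 12 genes had an estimate above 0 and 7 below, with a median of -0.029. With median scaling the split was 9 and 3 and the median 0.072. *sf3a2*, which belongs to the SF3A complex, was at 521.9, 444.6 and 380.3 TPM in controls and at 557.0, 545.1 and 499.8 TPM in morphants, a log2 fold change of 0.26 that did not pass the threshold (SE 0.073, limma-adjusted p = 0.0770). Without set 1 *sf3a2* was called higher (0.34, limma-adjusted p = 0.0326). In the proteins that recognize the U2 RNA, *snrpb2* was at 507.8 ± 24.0 and 508.9 ± 25.8 TPM (SD, n = 3 each), a log2 fold change of 0.0028 (SE 0.054). *sf3b5*, the most abundant U2 gene, had an estimate of 0.067 (SE 0.061, limma-adjusted p = 0.479).

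Among U1 genes, *snrpa* and *snrpc*, which encode a pair of proteins specific to that snRNP, had estimates of 0.15 (SE 0.059) and -0.26 (SE 0.097), with adjusted p of 0.148 and 0.127 from limma. *snrpc* was at 180.7, 229.7 and 379.3 TPM in controls and at 182.9, 175.3 and 283.2 TPM in morphants, and the groups overlapped. *prpf39.1* and *prpf39.2*, a pair of U1-associated genes, were at 86.0 to 87.0 and 61.0 to 71.1 TPM in controls. No U1 gene was called by limma in the main fit, and 1 was higher and 1 lower at an unadjusted p under 0.05. Over all genes tested, 8.49% were called, so the lack of calls in so small a group cannot set it apart. Without set 1, *snrpc* was called lower (log2 fold change -0.40, limma-adjusted p = 0.0243).

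In the main fit, no gene of the Sm or LSm rings was called by limma, where 2 were higher and 2 lower at an unadjusted p under 0.05. Over all genes tested, 8.49% were called, and 9.76% were higher and 23.4% lower at that unadjusted p. With so few genes in the rings, the lack of calls cannot set them apart from all genes. Without set 1, *snrpd3* and *snrpg* were called higher and *lsm4* lower. *snrpd3* was also called higher with quantile normalization (limma-adjusted p = 0.0435) and with the pair of LOC genes left out (0.0406). The largest positive estimate of an Sm gene was that of *snrpd3*, 0.24 (SE 0.064, limma-adjusted p = 0.0684), at 2493, 1904 and 1635 TPM in controls and 2760, 2274 and 2050 TPM in morphants. *snrpg* followed with 0.19 (SE 0.081, limma-adjusted p = 0.168). *snrpf* had an estimate of -0.11 (SE 0.058, limma-adjusted p = 0.228), and its highest morphant value, 1824 TPM, lay below its lowest control value, 1834 TPM. *snrpb*, whose relative *snrpn* was not found by name in the deposited table, had an estimate of -0.094 (SE 0.057). With median scaling that of *snrpb* changed sign, to 0.0076.

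In the LSm ring, *lsm2* and *lsm4* had the most distant estimates, 0.25 (SE 0.074, limma-adjusted p = 0.0827) and -0.32 (SE 0.101, limma-adjusted p = 0.0950). *lsm2* was at 173.1, 153.4 and 154.7 TPM in controls and at 186.9, 179.9 and 207.3 TPM in morphants, and *lsm4* at 75.5, 79.0 and 101.1 TPM against 71.2, 64.7 and 67.3 TPM. In both genes the groups did not overlap. Over all members, the morphant samples lay wholly above the controls in 7 and wholly below in 3, or 9.21% and 3.95%, against 3.71% and 11.3% of all genes tested. *lsm7*, the most abundant of the ring, had an estimate of 0.058 (SE 0.059, limma-adjusted p = 0.526).

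Of the tri-snRNP genes, 4 had an estimate above and 4 below 0, and none was called (0 higher and 1 lower at an unadjusted p under 0.05 from limma). Their split was 6 and 2 with median scaling, 2 and 6 without set 1, and 5 and 3 without set 3. Over all genes tested, 37.7% had an estimate above 0 and 8.49% were called. The lack of calls among so few genes cannot set this group apart. *prpf8*, the scaffold at the catalytic centre, was at 119.1, 129.4 and 183.4 TPM in controls and 111.4, 110.2 and 133.9 TPM in morphants, a log2 fold change of -0.26 (SE 0.080, limma-adjusted p = 0.0910). *usp39*, which helps the tri-snRNP to join, was at 119.0, 113.3 and 119.2 TPM in controls and 128.1, 121.2 and 131.8 TPM in morphants, without overlap, with an estimate of 0.12 (SE 0.054, limma-adjusted p = 0.192). *sart1*, the most abundant of these genes, had an estimate of -0.058 (SE 0.059), which became 0.043 with median scaling. At the 3′ splice site, *u2af1* was at 2114 ± 149.3 and 2121 ± 134.4 TPM (SD, n = 3 each), and *u2af2* had an estimate of -0.17 (SE 0.066, limma-adjusted p = 0.145).

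In the Prp19 complex and its partners, 6 of 9 genes had an estimate above 0 (8 of 9 with median scaling), while the only gene called was *prpf19* itself, on the lower side. Over all genes tested, 37.7% had an estimate above 0 and 5.87% were called lower. *bud31* was at 616.3, 594.2 and 555.6 TPM in controls and at 670.3, 632.1 and 695.6 TPM in morphants, with no overlap and an estimate of 0.18 (SE 0.068, limma-adjusted p = 0.134). Of the minor spliceosome, *zmat5*, a protein of the U11/U12 particle, was at 347.9, 279.5 and 219.9 TPM in controls and at 389.2, 336.6 and 292.6 TPM in morphants. Its estimate was 0.28 (SE 0.067, limma-adjusted p = 0.0566). *rnpc3*, which binds the U12 RNA, had an estimate of -0.024 (SE 0.066), which became 0.076 with median scaling.

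The name pattern also took in 7 genes whose products are not spliceosome proteins, and none of them was called by limma (1 higher and 1 lower at an unadjusted p under 0.05). With 8.49% of all genes tested called, the lack of calls among these 7 cannot set them apart. *lsm10* and *lsm11* belong to the U7 particle that processes histone transcripts, *lsm1* to a cytoplasmic ring in mRNA decay, *lsm14a* and *lsm14b* to granules of repressed mRNA, and *bud23* modifies ribosomal RNA. *lsm12* was the most abundant, at 287.7 ± 22.6 and 286.4 ± 23.8 TPM (SD, n = 3 each), and its estimate of -0.0067 (SE 0.052) became 0.094 with median scaling.

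Related genes were also compared as ratios within a sample, which no scaling of the sample can move. These ratios were not tested and are given as values. *ncbp2* had 5.44, 4.24 and 3.21 times the level of *ncbp1* in control samples and 6.52, 5.60 and 4.98 times in morphants. *ncbp3*, which associates with the cap-binding complex, had 0.333, 0.400 and 0.403 of the level of *ncbp1* in controls and 0.406, 0.495 and 0.612 in morphants. In both, the ratio was higher in the morphant sample of each set, and for *ncbp3* the groups did not overlap.

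The ratio of *lsm14b* to *lsm14a* was 0.634, 0.595 and 0.322 in controls and 0.762, 0.778 and 0.538 in morphants. That of *cwf19l2* to *cwf19l1* was 1.57, 1.21 and 0.870 in controls and 1.87, 1.55 and 1.34 in morphants. Both ratios were higher in the morphant of every set, although the groups overlapped. For *prpf38b* to *prpf38a* the ratio was higher in morphants of sets 1 and 2 and lower in set 3. *snrpa* and *snrpb2*, related genes of the U1 and U2 snRNPs, gave ratios of 0.428, 0.443 and 0.465 in controls and 0.442, 0.487 and 0.552 in morphants. The ratio of *lsm2* to *lsm4*, a pair chosen after seeing its values, went from 2.29, 1.94 and 1.53 in controls to 2.63, 2.78 and 3.08 in morphants, without overlap.

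**Figure D4:**
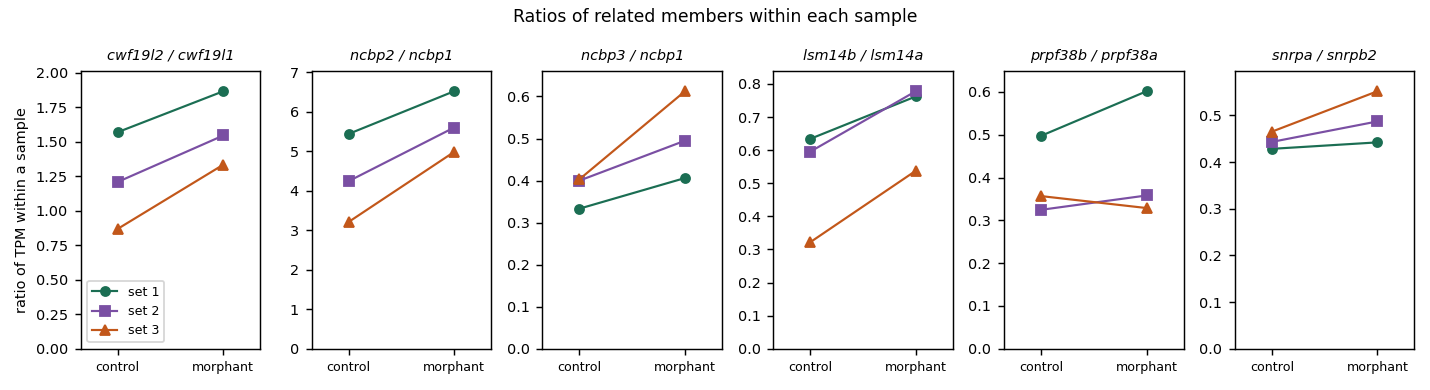
Ratio of the TPM of related members within each sample, with a line for each replicate set from control to morphant. All lines go up except that of set 3 for *prpf38b* over *prpf38a* (0.357 to 0.329), and of the 6 ratios plotted, that of *ncbp3* to *ncbp1* has morphants wholly above controls.

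Replicate sets also differed in level. The range of the 3 set means exceeded the absolute change between groups in 64 of 76 members, as it did in 81.5% of all genes tested. These measures are not alike. A range over 3 means tends to be wider than a difference between group means, and each set mean averages fewer samples than a group mean. The count therefore cannot decide whether sets differed more than groups, which was not tested. The median range was 0.30 for members and 0.41 for all genes, on the log2(TPM + 0.5) scale. It was widest in *prpf19* (1.37), *ncbp3* (0.93), *snrpc* (0.85) and *sf3b1* (0.71).

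The difference between sets and the change in morphants went opposite ways in many members. Set 3 lay below set 1 in 29 of the 45 members with a positive change, including all 5 called higher, and above set 1 in 25 of the 31 with a negative change, including both called lower. Over all genes tested, set 3 lay below set 1 in 51.1% of those with a positive change and above it in 64.4% of those with a negative change. Across the 76 members, the log2 fold change and the difference between set 3 and set 1 (averaged over both groups) had a Pearson correlation of -0.62 and a Spearman correlation of -0.59, or a Pearson correlation of -0.50 over the 69 members not called. Over all 13382 genes the values were -0.11 and -0.16. Many of those genes were expressed below every tested member, and the correlation was not computed over genes of like level. It was therefore not tested whether the members differ in this from other abundant genes. Genes are not independent replicates, and both measures are computed from the same 6 samples. A value set apart in a single sample of set 1 or 3 moves both measures, so these correlations are descriptions. *src* itself was higher in set 3 than in set 1 by 1.25 and lower in morphants. What sets the replicate sets apart is not given in the labels, and its part in the changes was not tested.

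**Figure D5:**
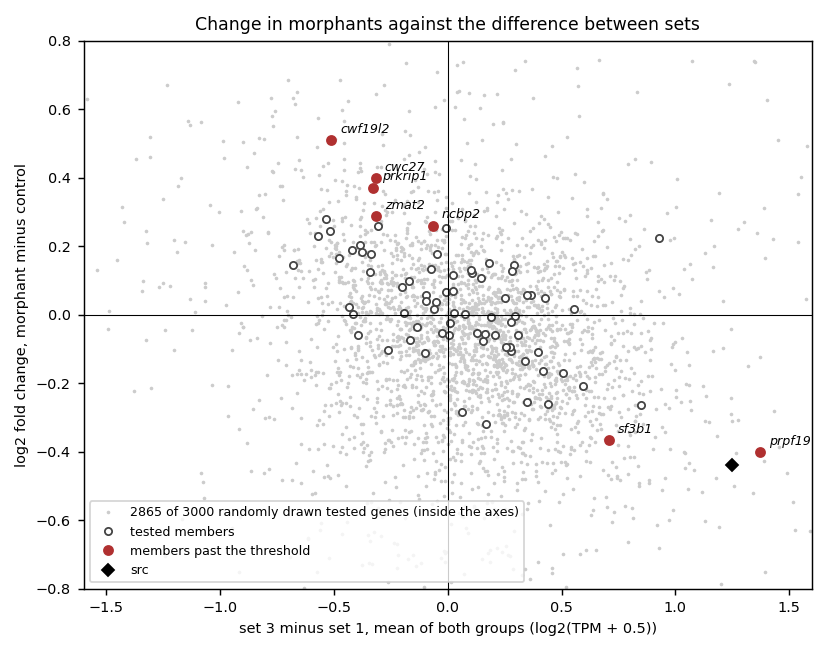
Log2 fold change in morphants (vertical) against the difference of set 3 minus set 1, averaged over both groups (horizontal), both on the log2(TPM + 0.5) scale. Open circles are the 76 tested members with the 7 called ones filled, the diamond is *src*, and grey dots are randomly drawn tested genes. Members run from upper left to lower right (Pearson correlation -0.62).

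Other genes of the pathway were taken from a list of 64 spliceosome genes outside the name pattern, of which 62 were in the table and tested. Of these, 40 had an estimate above 0 and 22 below, 3 were called higher and 0 lower by limma (13 and 3 at an unadjusted p under 0.05), and the median was 0.021. An estimate above 0 was found in 64.5% of the list, beside 37.7% of all genes tested. Over all genes, 2.62% were called higher and 5.87% lower (9.76% and 23.4% at an unadjusted p under 0.05 from limma). The called genes were *ddx23*, the helicase that displaces U1 from the 5′ splice site, *dnajc8*, a chaperone-like spliceosome protein, and *dhx16*, the helicase that activates the particle, with log2 fold changes of 0.37, 0.42 and 0.27. Their adjusted p-values from limma were 0.0275, 0.0386 and 0.0477. A second list held 22 genes that assemble or mature snRNPs, with 21 in the table and tested. In it 10 estimates were above and 11 below 0 (47.6% above). Of the 21, 1 gene was called in each direction, where 2.62% of all genes were called higher and 5.87% lower. *larp7*, a protein of the 7SK and U6 RNAs, was called higher (0.52, SE 0.096, limma-adjusted p = 0.0384). *clns1a*, which hands Sm proteins to the assembly machinery, was called lower, at 47.0, 47.3 and 34.9 TPM in controls and 36.1, 35.4 and 27.9 TPM in morphants (log2 fold change -0.37, SE 0.061, limma-adjusted p = 0.0319). None of these 5 genes was called without the block, without set 2, without set 3, without the filter on low TPM or without the mean-variance trend. Without set 1, *dhx16* was not called either (limma-adjusted p = 0.0757). With quantile normalization the limma-adjusted p was 0.0505 for *clns1a* and 0.0506 for *dhx16*, and with median scaling *clns1a* had a log2 fold change of -0.27 (limma-adjusted p = 0.0612).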

How the data were processed

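Polyadenylated RNA of whole embryos was sequenced as Illumina short reads. The authors used Salmon and a reference transcriptome of *X. tropicalis* to quantify the reads, and deposited TPM summed per gene, together with their mean TPM of each group. The processing notes also name cutadapt and Sleuth. Versions of cutadapt and Salmon are not given in the sources used here. TPM values carry no read depth, so no counting error or detection floor could be computed. Related genes can share reads, so values of close copies such as *prpf39.1* and *prpf39.2* are less certain. The series design text names another frog, *Xenopus laevis*, whereas the sample labels and the paper name *X. tropicalis*.

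Of 23634 genes, the 13382 whose mean reached 1 TPM in control or morphant samples were tested. Their log2(TPM + 0.5) values were fitted by limma (version 3.58.1, under R 4.3.3) with the replicate number as a block, followed by eBayes with a mean-variance trend, and p-values were adjusted over all of them. A fold change on this scale understates that of low genes. The pairing rests on the shared numbers in the labels, on sibling embryos in the paper, and on the correlation of same-numbered samples' deviations from their group means, 0.61 to 0.73 over all genes. Residual degrees of freedom per gene were 2 in the paired fit and 4 in the unpaired one. In the paired fit eBayes added 3.87 prior degrees of freedom, drawn from all genes tested. Nothing in the labels says how many clutches the samples came from, so p-values of the paired fit measure only how the differences within sets spread among these samples. All 77 names were found among RefSeq symbols for UCB_Xtro_10.0, an assembly used for names only, since the expression values rest on another build.

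The members and lists were chosen with earlier results of these data known. Genes named in the text are *src*, members past the threshold, and in each of 12 groups the most abundant member and those with the largest positive and negative change, then related members in pairs and the genes called in both further lists. The other members named were chosen after their values were seen. Values of 1 member are not reported here and it is left out of the plots that name each member, though it is in all counts and stands unnamed in the plot of change against the difference between sets. Of the tissue markers, *noto*, *krt12.4* and *sox17b* were not found by name in the table. Alternative fits left out the block, each set in turn, the mean-variance trend or the filter on low TPM, raised that filter to 5 TPM, used pseudocounts of 0.1 or 1, robust eBayes, quantile normalization or median scaling and, in a fit added after seeing the data, left out LOC108645507 and LOC100335111.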

Additional observations from a re-analysis of the deposited data

How the results depend on the processing

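As reported, 5 members were called higher and 2 lower, with a median log2 fold change of 0.030. Pseudocounts of 0.1 and 1 and a filter at 5 TPM called the same 7 genes, and robust eBayes those and *zmat5*. With no filter on low TPM, with no replicate block and with no mean-variance trend, 0 members were called in either direction, where 18, 4 and 11 were higher and 8, 0 and 6 lower at an unadjusted p under 0.05 from limma. Over all genes, these fits called 0, 0 and 126 higher and 0, 1 and 368 lower, beside 350 and 786 in the main fit. The cause was not tested. With one replicate set left out, between 0 and 9 members were called higher and between 0 and 4 lower, and the median was 0.016 to 0.037. Median scaling called 9 higher and 0 lower (median 0.13, beside 0.026 for all genes) and quantile normalization 4 and 0 (0.043 beside -0.0024). Leaving out LOC108645507 and LOC100335111 called 7 and 0 (0.054 beside -0.047). Over all genes, these fits called 569, 384 and 420 higher and 415, 402 and 634 lower. The members' median minus that of all genes was 0.0985 in the main fit and 0.105 with median scaling. It was 0.045 with quantile normalization and 0.101 without the LOC pair. With median scaling the split of estimates moved from 45 above and 31 below 0 to 61 and 15. Only genes picked for naming in the text were followed singly. Of these, *lsm12* (0.094), *rnpc3* (0.076), *sart1* (0.043) and *snrpb* (0.0076) turned sign with median scaling, none of them called. *u2af1* turned without set 2 (-0.0042) and with quantile normalization (-0.010), and *snrpb2* without set 1 (-0.017). *rnpc3* also turned without set 1 (0.020) and with quantile normalization (0.0040), and *lsm12* without the LOC pair (0.017). *cwf19l2*, *prkrip1* and *cwc27* passed the threshold under 8 of 13 alternatives, *zmat2* and *ncbp2* under 7, and *sf3b1* and *prpf19* under 5. Their direction was the same in all 13. Fits that changed only the block, the trend, robust eBayes or the filter leave the estimate as it is. Those fits could therefore not show a change of direction. Some named members not called in the main fit passed under fewer alternatives. Those were *zmat5* under 4, *snrpd3* under 3, and *snrpg*, *lsm4*, *snrpc*, *sf3a2* and *prpf38b* under 1 each. For *cwf19l2* the log2 fold change ran from 0.42 to 0.61 and the adjusted p from limma from 0.0201 to 0.555, the latter without the block.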
